A study of Mus musculus with 3 samples.

Results

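Oncofetal liver genes were measured by single-nuclei RNA sequencing (sNuc-Seq) in mouse liver. The 7 genes, known from fetal liver and liver tumors, were Afp, Gpc3, H19, Igf2, Igf2bp3, Cd24a and Golm1. They were chosen by name, but with earlier results of these data known. The files held 32285 genes, of which 23466 were found in at least 3 nuclei. Nuclei came from frozen liver of 1 male C57BL/6 J mouse on a normal diet (ND) and of 2 mice of the same strain and sex in a model of fibrosis in metabolic dysfunction-associated steatohepatitis, STZ-HFHC 1 and 2. The STZ-HFHC mice were given 0.2 mg streptozocin (STZ), a toxin of pancreatic beta cells, when 3 days old, and a diet rich in fat and cholesterol (HFHC) from 4 weeks of age. Whether the ND mouse received a sham injection, and the age of each mouse at sampling, were not given in the sources used here.

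Most of these genes are active in the fetal liver, fall around birth and can return in regenerating or malignant liver. Afp encodes alpha-fetoprotein, the fetal relative of albumin and a serum marker of hepatocellular carcinoma. Gpc3 encodes glypican 3, a heparan sulfate proteoglycan of the cell surface, and Igf2bp3 an RNA-binding protein of the IGF2 mRNA-binding family. Igf2 is a fetal growth factor and H19 a noncoding RNA of the same imprinted locus. Cd24a encodes a small mucin-like surface protein found on progenitor-like and biliary cells and on B lineage cells, and Golm1 a Golgi membrane protein whose serum level is followed in liver disease.

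After barcodes with over 5000 genes or over 5% mitochondrial counts were excluded, 8494, 8921 and 10921 nuclei remained in ND, STZ-HFHC 1 and STZ-HFHC 2, with medians of 4068, 3015 and 4027 unique molecular identifiers (UMIs). Hepatocyte-like nuclei, named by 10 marker genes, numbered 5410, 3002 and 4789, with medians of 4023.5, 7934 and 6552 UMIs, and 306, 1825 and 1604 nuclei stayed unnamed. The conditions lay in separate clusters of this class, led by Gm47818, Serpina1e and Sgcz in ND and by Sult1e1, Ephb2, Slc22a3 and Vmn2r3 in STZ-HFHC, and shared 1 cluster of 98 nuclei led by the interferon-response gene Rsad2. The clusters led by Gm47818 and Serpina1e had at least 3 hepatocyte markers raised 2-fold over other clusters. The other clusters of the class, including those of STZ-HFHC, were named by a weaker rule, given with the processing. No hepatocyte marker was raised 2-fold in the clusters led by Ephb2, Slc22a3 and Vmn2r3. Nearly all STZ-HFHC nuclei of the class, but a minority from ND, thus rest on the weaker rule, which bears on ratios to ND. The cluster led by Vmn2r3, which held 1193 and 247 nuclei of the STZ-HFHC mice, also had raised Pkhd1, Bicc1 and Glis3 of the cholangiocyte markers. Levels are UMI sums over the nuclei of a class scaled to 1000000 UMIs of the same nuclei (CPM), and values in parentheses are 95% intervals that cover counting error only. Because 1 ND mouse gives no spread, no test between conditions was made. In its place, a gene was counted as higher or lower when it had at least 50 UMIs in the class over the 3 libraries and lay at least 2-fold above, or at least 2-fold below, ND in each STZ-HFHC mouse. The ND library carried a different label code from the STZ-HFHC libraries, so that condition and a possible batch of libraries cannot be told apart. Pairs of libraries shared 29 to 32 barcode sequences.

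Hepatocyte transcripts were found in nuclei of every class. The 10 hepatocyte markers, summed, reached 74.6% to 91.7% of their hepatocyte-like level in the other named classes of ND, 34.8% to 85.1% in those of STZ-HFHC 1 and 57.8% to 87.8% in those of STZ-HFHC 2. A member found at a similar share in every class therefore cannot be placed in hepatocytes from its level alone, and each member is given below with its level in other classes.

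Promoters from RefSeq (GRCm38.p6, windows of 250 bases before to 50 after the start) were at hand for 5 of the 7 genes. They are shown for Igf2bp3 and Gpc3, the members that were higher in STZ-HFHC, and for Afp, which was not. Igf2bp3 lies at chr6:49085223-49214957 on the minus strand and its promoter at chr6:49214905-49215204. Gpc3 lies at chrX:52272426-52613950 on the minus strand, with its promoter at chrX:52613925-52614224. Afp lies at chr5:90490737-90508907 on the plus strand, next to the albumin gene, with its promoter at chr5:90490464-90490763. Sequences are written 5′ to 3′ on the strand of the gene, and capitals mark matches on either strand. The motifs searched were TATAAA for the promoter element of that name (TATA box), the letters CCAAT of the element bound by NF-Y, the GC box GGGCGG bound by Sp1-type factors, the letters GTTAAT at the core of HNF1 sites, and the core of TCF/LEF sites, CTTTGA.
Igf2bp3: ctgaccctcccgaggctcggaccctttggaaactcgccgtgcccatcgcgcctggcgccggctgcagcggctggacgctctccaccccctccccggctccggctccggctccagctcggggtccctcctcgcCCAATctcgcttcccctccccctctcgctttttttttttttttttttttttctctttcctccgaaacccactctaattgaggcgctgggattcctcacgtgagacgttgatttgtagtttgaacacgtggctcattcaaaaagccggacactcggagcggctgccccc
Gpc3: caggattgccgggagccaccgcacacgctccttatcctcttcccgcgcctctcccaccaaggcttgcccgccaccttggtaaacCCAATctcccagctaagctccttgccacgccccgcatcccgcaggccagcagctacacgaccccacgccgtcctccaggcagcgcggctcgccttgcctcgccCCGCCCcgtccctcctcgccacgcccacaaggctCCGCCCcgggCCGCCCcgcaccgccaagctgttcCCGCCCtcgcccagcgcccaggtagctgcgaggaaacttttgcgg
Afp: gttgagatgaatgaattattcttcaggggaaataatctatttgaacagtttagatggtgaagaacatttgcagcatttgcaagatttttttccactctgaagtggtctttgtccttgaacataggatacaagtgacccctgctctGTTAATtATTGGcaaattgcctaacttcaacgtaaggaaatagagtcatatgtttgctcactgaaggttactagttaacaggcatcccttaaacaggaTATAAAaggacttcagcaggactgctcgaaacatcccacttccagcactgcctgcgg
The Afp promoter held 1 match each to the TATA box, the CCAAT box and the HNF1 core, and had a GC content of 40%, against a median of 52.7% over the 32851 promoters of the table. Those motifs were present in 13.6%, 37.4% and 7.10% of all promoters, respectively. The HNF1 core and the CCAAT box of Afp lay 1 base apart. The Gpc3 promoter, with 70.7% GC and 30 CG dinucleotides, held 4 GC boxes, a motif found in 35.7% of promoters, and 1 CCAAT box. The Igf2bp3 promoter, with 60.3% GC and 25 CG dinucleotides, held 1 CCAAT box and no GC box. None of the 3 held a TCF/LEF core, which was in 16.0% of promoters. These are matches of letters within the windows shown, and binding was not measured.

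Of the 4 members with at least 50 UMIs in hepatocyte-like nuclei, Gpc3 and Igf2bp3 were higher in both STZ-HFHC mice and none was lower. Without the upper limits on genes and mitochondrial counts, Igf2bp3 had a log2 ratio of 0.96 in STZ-HFHC 2 and no longer passed, which left 1 member. Over all 14844 genes with as many UMIs, 8.23% were higher and 5.37% were lower under the same rule. The members were chosen with earlier results of these data known, so their count beside these shares is not independent evidence. The median log2 ratio of all these genes to ND was 0.09 (STZ-HFHC 1) and 0.10 (STZ-HFHC 2). The plot of ratios to ND shows the 4 members. Over the 3 libraries, Gpc3 and Golm1 stood highest in mesothelial-like nuclei, at 909 and 43.0 CPM beside 4.81 and 1.41 CPM in hepatocyte-like nuclei, and Cd24a in cholangiocyte-like nuclei.

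**Figure D1:**
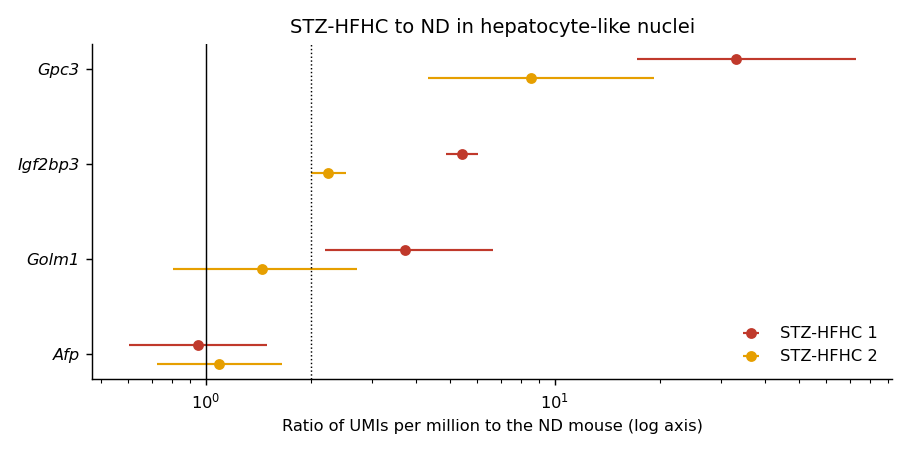
Ratio of the level (CPM) in hepatocyte-like nuclei of each STZ-HFHC mouse to the ND mouse, on a log axis, for 4 genes. Points are ratios, bars are 95% counting intervals, the solid line marks 1 and the dotted line 2; Gpc3 and Igf2bp3 lie above 2 in both mice and Afp lies at 1.

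Igf2bp3 had the most UMIs of the 7 genes, 5671 in the nuclei kept. Its level in hepatocyte-like nuclei was 15.5 CPM (14.0–17.1) for ND, 84.1 CPM (80.6–87.6) for STZ-HFHC 1 and 34.8 CPM (32.9–36.8) for STZ-HFHC 2. The ratio to ND was 5.41 (4.86–6.04) and 2.24 (2.00–2.52), a mean log2 ratio of 1.80 ± 0.90 (SD, n = 2). Both STZ-HFHC mice were thus above ND, and the gap between them exceeded counting error.

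Hepatocyte-like nuclei with many Igf2bp3 UMIs were found mainly in STZ-HFHC. At least 3 UMIs were present in 2 nuclei (0.0370%) from ND, 256 (8.53%) from STZ-HFHC 1 and 65 (1.36%) from STZ-HFHC 2, and the highest count in a nucleus was 3, 23 and 8. Among endothelial-like nuclei the corresponding shares were 0.250%, 1.06% and 0.766%, with at most 3, 4 and 5 UMIs. These shares and counts were not corrected for depth. The medians were 4023.5, 7934 and 6552 UMIs in hepatocyte-like nuclei and 5302.5, 1724 and 1903.5 UMIs in endothelial-like nuclei. The 10 nuclei with most UMIs held 5.51%, 5.17% and 4.63% of the Igf2bp3 UMIs of the class, so that the transcript was spread over many nuclei. With every nucleus thinned to 1000 UMIs, the share of hepatocyte-like nuclei with an Igf2bp3 UMI was 1.54% (1.22–1.92) in the ND mouse and 7.47% (6.56–8.48) and 3.72% (3.20–4.29) in the STZ-HFHC mice, with 223, 18 and 27 shallower nuclei left out. Without thinning, at least 1 UMI was present in 370, 1104 and 907 nuclei of the class.

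In ND and STZ-HFHC 2, endothelial-like nuclei had an Igf2bp3 level close to that of hepatocyte-like nuclei. Endothelial-like nuclei of ND had 15.3 CPM (12.6–18.4), beside 46.6 CPM (38.5–55.8) and 35.0 CPM (29.2–41.6) in the STZ-HFHC mice. These are 98.6%, 55.4% and 100.5% of the hepatocyte-like level, beside 86.0%, 67.7% and 79.6% for the hepatocyte markers. The ratio of endothelial-like nuclei to ND was 3.04 (2.33–3.98) and 2.29 (1.76–2.97), and that of stellate or fibroblast-like nuclei was 2.27 (1.64–3.10) and 1.98 (1.51–2.60). At 1000 UMIs, 1.39% (0.780–2.28), 3.86% (2.60–5.50) and 3.47% (2.40–4.84) of endothelial-like nuclei had an Igf2bp3 UMI, from median depths of 5302.5, 1724 and 1903.5 UMIs before thinning. The intervals of the classes overlapped in ND and STZ-HFHC 2 and did not in STZ-HFHC 1. In macrophage-like nuclei Igf2bp3 stood at 65.1 CPM (STZ-HFHC 1) and 45.8 CPM (STZ-HFHC 2). These are 0.774 (0.675–0.885) and 1.32 (1.09–1.57) times the hepatocyte-like level, and the part of free RNA in them was not tested. Over the 3 libraries Igf2bp3 stood highest in macrophage-like nuclei, at 56.2 CPM beside 44.0 CPM in hepatocyte-like nuclei. Nearly all macrophage-like nuclei came from STZ-HFHC, which bears on that comparison. From ND 16 nuclei received that name, while a cluster with 230 ND nuclei, which had the macrophage markers Clec4f, Cd163 and Timd4 among its top genes, stayed unnamed, with hepatocyte markers raised in it too. Those 230 nuclei had 16.6 CPM (9.46–26.9) of Igf2bp3, from 16 UMIs.

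**Figure D2:**
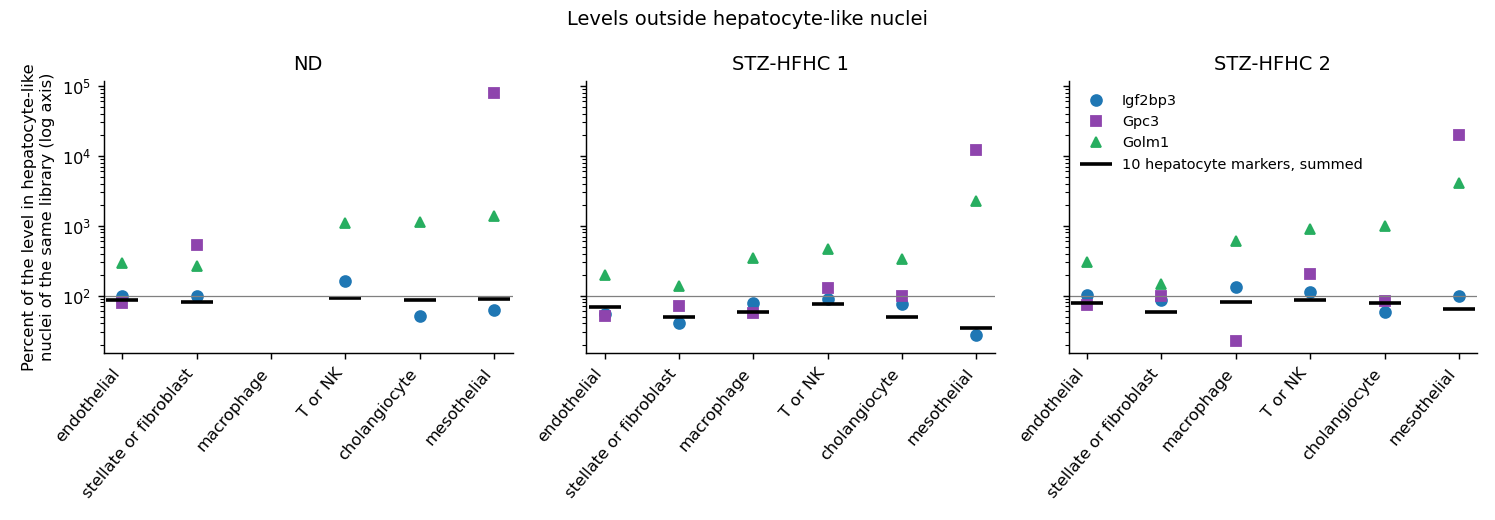
Level of Igf2bp3, Gpc3 and Golm1 in 6 other classes as a percentage of the hepatocyte-like level of the same library (log axis), with black bars for 10 hepatocyte markers summed. In endothelial-like nuclei of ND Igf2bp3 is at 98.6% beside 86.0% for the markers, Golm1 lies above 100% in each class drawn, Gpc3 is far above 100% in mesothelial-like nuclei, and levels with 0 UMIs are not drawn.

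Among clusters of hepatocyte-like nuclei, Igf2bp3 was highest in a cluster with pericentral genes. This cluster, led by Slc22a3 and Slc1a2 and holding Glul (glutamine synthetase) among its top genes, had 113 and 54.9 CPM in STZ-HFHC 1 and 2, respectively. The cluster led by Vmn2r3 and with Nrg1 and Areg, a growth factor of the EGF family, had 96.1 and 46.1 CPM. The clusters led by Ephb2 and by Sult1e1 had 64.4 and 39.9 CPM in STZ-HFHC 1, against 32.3 and 25.9 CPM in the other mouse. The members were left out of the clustering. The order of these 4 clusters was the same in both mice, and the 3 large ND clusters lay between 12.2 and 16.6 CPM.

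**Figure D3:**
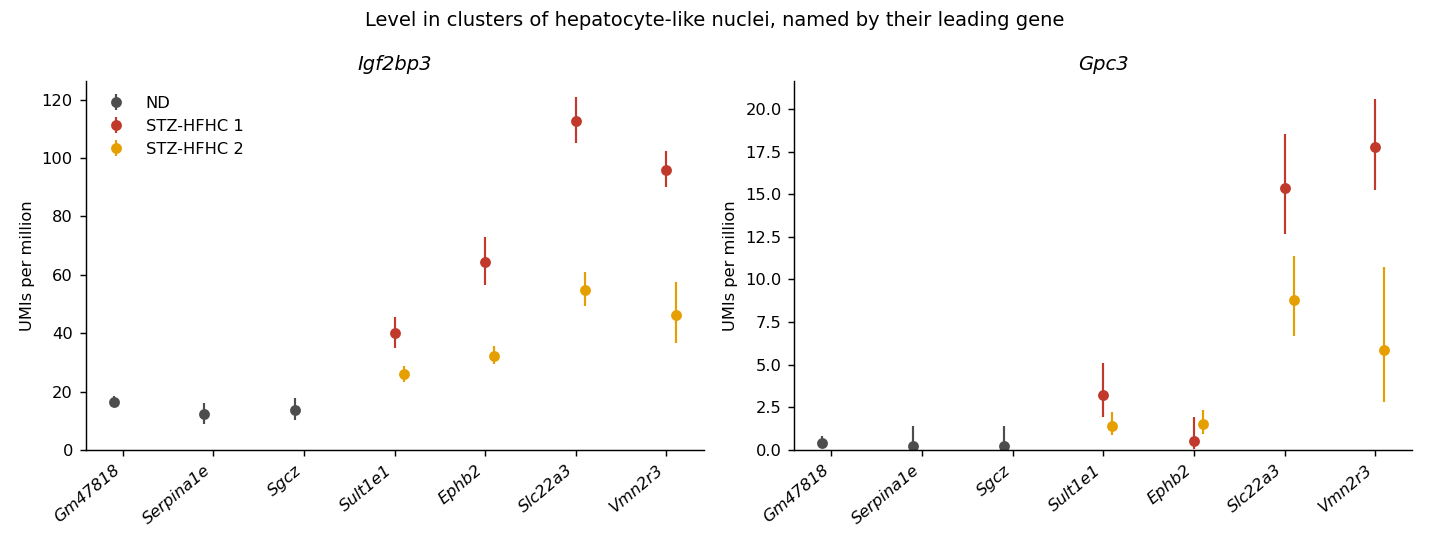
Igf2bp3 (left) and Gpc3 (right) in clusters of hepatocyte-like nuclei with at least 100 nuclei of a library, in CPM with 95% counting intervals; clusters are named by their leading gene. The 3 ND clusters lie at the bottom for both genes, and the clusters led by Slc22a3 and Vmn2r3 are the highest of the STZ-HFHC clusters for both genes in each mouse.

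Nuclei were also ordered by their share of 7 pericentral among 7 pericentral and 8 periportal marker UMIs, and divided into 3 sets of equal size in each library. Igf2bp3 was higher in the most pericentral than in the most periportal set by 1.93-fold (1.73–2.15) in STZ-HFHC 1 and by 1.87-fold (1.63–2.15) in the other mouse. In ND the same ratio was 0.862 (0.661–1.12), an interval that includes 1. Glul and Slc1a2 are among the pericentral markers, so that this order and the cluster led by Slc22a3 share genes. Cutoffs lay in a continuous range, with 1946 of 5237, 1249 of 2886 and 2220 of 4698 nuclei within 5 percentage points of a limit.

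**Figure D4:**
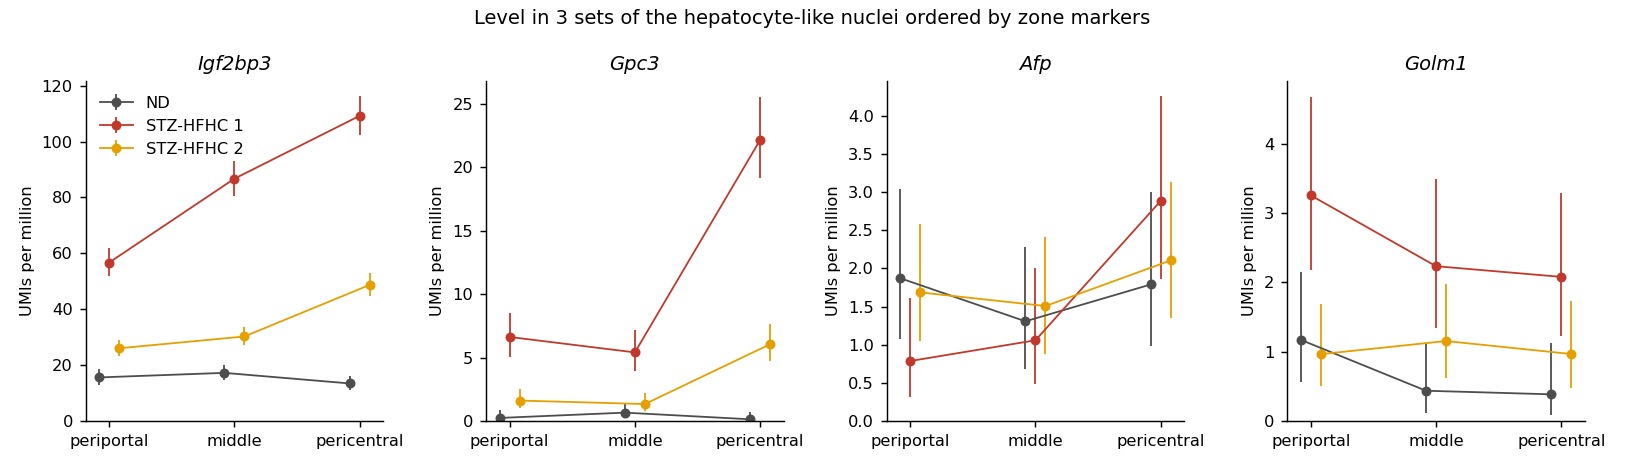
Level in CPM of Igf2bp3, Gpc3, Afp and Golm1 in the most periportal, middle and most pericentral sets of hepatocyte-like nuclei, with 95% counting intervals. Igf2bp3 and Gpc3 are higher at the pericentral end in both STZ-HFHC mice (1.93-fold and 1.87-fold for Igf2bp3). In ND the ratio of Igf2bp3 is 0.862, and Gpc3 has too few UMIs for a ratio.

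Hepatocyte-like and mesothelial-like nuclei held 40.4% and 40.6% of the 1041 Gpc3 UMIs, but only mesothelial-like nuclei stood out by level. Over the 3 libraries, hepatocyte-like nuclei had 4.81 CPM (4.36–5.29), within the 1.85 (endothelial-like) to 7.51 CPM (T or NK-like) of the other named classes. Hepatocyte-like nuclei held 9, 306 and 106 Gpc3 UMIs in ND, STZ-HFHC 1 and STZ-HFHC 2, equal to 0.350 CPM (0.160–0.665), 11.6 CPM (10.3–12.9) and 3.00 CPM (2.45–3.63). The ratio to ND was 33.0 (17.2–72.9) and 8.56 (4.34–19.2), with a mean log2 ratio of 4.0 ± 1.4 (SD, n = 2). Intervals of the 3 mice did not overlap.

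A few hepatocyte-like nuclei carried a large part of this Gpc3. At least 1 UMI was found in 9, 112 and 57 nuclei of the 3 mice, and at least 3 UMIs in 0, 29 and 9 nuclei. The highest count was 50 UMIs in a nucleus of STZ-HFHC 1 and 8 in STZ-HFHC 2, and the 10 highest nuclei held 42.2% and 48.1% of the UMIs of the class. Without these 10 nuclei of each STZ-HFHC mouse, all ND nuclei being kept, the ratio to ND was 19.2 (9.88–42.7) and 4.45 (2.18–10.2). Of the nuclei with at least 3 UMIs, 14 of 29 and 7 of 9 were in the cluster with pericentral genes, and 14 and 1 were in the cluster led by Vmn2r3. Of the 3002 and 4789 nuclei of the class, the first cluster held 735 and 875, and the second 1193 and 247. None of the nuclei with at least 3 UMIs had a doublet score in the highest 8% of its library. Only 1.31% and 2.22% of nuclei of the class without Gpc3 had such a score. In the nuclei with at least 3 UMIs, the 8 mesothelial markers summed to 2 UMIs in STZ-HFHC 1, or 6.80 CPM, beside 4.62 CPM in nuclei without Gpc3. In STZ-HFHC 2 they summed to 0, beside 2.43 CPM. With so few nuclei and UMIs these values do not set the Gpc3-rich nuclei apart, and a part of doublets was not tested.

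Nuclei with 1 Gpc3 UMI were not particular to the class. At 1000 UMIs a nucleus, 0.0386% (0.00467–0.139), 0.972% (0.652–1.39) and 0.294% (0.161–0.493) of hepatocyte-like nuclei had a Gpc3 UMI. Of endothelial-like nuclei it was 0 of 1079, which allows a share of up to 0.278%, 1.07% (0.461–2.09) and 0.210% (0.0255–0.758), so that the classes were not told apart by this share. The Gpc3 ratio of endothelial-like nuclei to ND was 21.7 (5.04–195) and 8.06 (1.61–77.9), from 2, 15 and 8 UMIs. Endothelial-like nuclei held at most 3 Gpc3 UMIs, against 50 in hepatocyte-like nuclei, counts not corrected for depth. In STZ-HFHC 1 the median depths were 1724 and 7934 UMIs, respectively.

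The cluster with pericentral genes stood at 15.4 and 8.79 CPM of Gpc3, and the cluster led by Vmn2r3 at 17.8 and 5.83 CPM. The clusters led by Sult1e1 and Ephb2 had 3.22 and 0.537 CPM in STZ-HFHC 1, and 1.41 and 1.5 CPM in the other mouse. Without the cluster led by Vmn2r3 the mean log2 ratio of Gpc3 to ND in the class was 3.69. The most pericentral set exceeded the most periportal by 3.35-fold (2.49–4.56) and 3.77-fold (2.26–6.55). In ND these sets held 1 and 2 Gpc3 UMIs, too few for a ratio.

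Mesothelial-like nuclei, which carried all 8 mesothelial markers in each library, had the highest Gpc3 level of the named classes. Gpc3 stood at 273 CPM (181–394) in the 35 such nuclei from ND, 1411 CPM (1258–1578) in 58 from STZ-HFHC 1 and 602 CPM (482–742) in 40 from STZ-HFHC 2. Within each library this was 778-fold (357–1875), 122-fold (104–143) and 201-fold (149–269) the hepatocyte-like level, a mean log2 ratio of 8.04 ± 1.35 (SD, n = 3). Of 14955 genes tested, 19.9% were at least 2-fold higher in mesothelial-like nuclei in each of the 3 libraries. With 3 libraries no exact test of a class difference could pass the usual threshold, and none was made. A Gpc3 UMI was found in 42.9%, 77.6% and 52.5% of these nuclei, with up to 72 UMIs in a nucleus. Gpc3 was also above ND within this class, by 5.18-fold (3.51–7.92) and 2.21-fold (1.43–3.51), while the summed mesothelial markers were 3.56 and 1.88 times the ND level. The part of the markers' difference in that of Gpc3 was not tested. The other classes were far below mesothelial-like nuclei. Gpc3 was at 0.273, 5.92 and 2.20 CPM in endothelial-like nuclei and 1.86, 8.20 and 3.00 CPM in stellate or fibroblast-like nuclei, and the last class was 5.31-fold (2.10–14.1) above hepatocyte-like nuclei in ND, from 13 and 9 UMIs. T or NK-like nuclei of STZ-HFHC had 14.7 and 6.06 CPM, or 1.27 (0.628–2.31) and 2.02 (0.725–4.55) times the hepatocyte-like level, intervals that include 1.

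**Figure D5:**
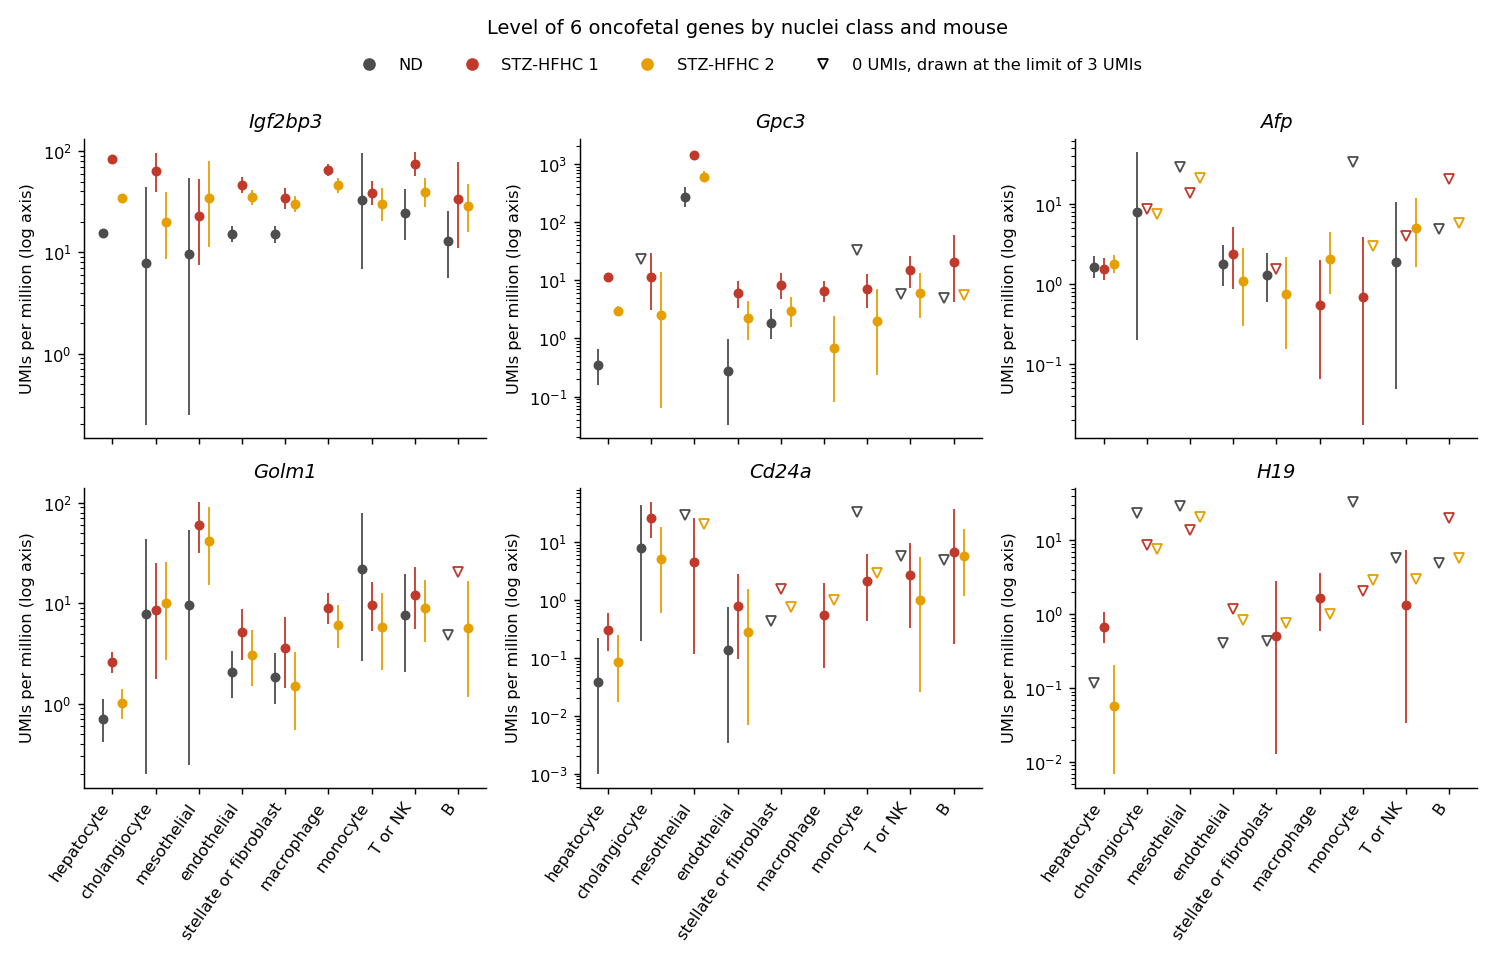
Level of 6 genes in CPM (log axes that differ between panels) by nuclei class and mouse. Filled points have 95% counting intervals and open triangles mark classes with 0 UMIs at the limit of 3 UMIs. Gpc3 peaks in mesothelial-like nuclei (273, 1411 and 602 CPM). Igf2bp3 is highest in hepatocyte-like nuclei in STZ-HFHC 1 (84.1 CPM) and in macrophage-like nuclei in STZ-HFHC 2 (45.8 CPM).

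The Afp levels of the 3 mice were low and could not be told apart. Hepatocyte-like nuclei held 42, 41 and 63 UMIs, or 1.63 CPM (1.18–2.21), 1.55 CPM (1.11–2.10) and 1.78 CPM (1.37–2.28). The ratio to ND was 0.949 (0.602–1.495) and 1.09 (0.726–1.65), with a mean log2 ratio of 0.02 ± 0.14 (SD, n = 2). Both intervals end below a 2-fold rise. Endothelial-like nuclei had 1.78, 2.37 and 1.10 CPM, a level not told apart from that of hepatocyte-like nuclei.

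No ND nucleus of the hepatocyte-like class held more than 1 Afp UMI. In STZ-HFHC 1, 2 nuclei held at least 3 Afp UMIs, together 10 of the 41 Afp UMIs of the class. The most pericentral set was 3.67-fold (1.54–10.1) above the most periportal for Afp in STZ-HFHC 1, while the ratio was 1.25 (0.666–2.36) in the other mouse and 0.956 (0.432–2.09) in ND. The 29 nuclei of STZ-HFHC 1 with at least 3 Gpc3 UMIs had 5 Afp UMIs, or 17.0 CPM (5.52–39.7), and 53 Igf2bp3 UMIs, or 180 CPM (135–236). Most of these 5 Afp UMIs lay in a single nucleus, while the interval takes each UMI as independent and is therefore too narrow. Nuclei of the class without Gpc3 had 1.30 CPM (0.896–1.83) of Afp and 82.4 CPM (78.9–86.1) of Igf2bp3. In the 9 such nuclei of STZ-HFHC 2 Afp had no UMI, which allows up to 46.5 CPM, and Igf2bp3 had 4 UMIs, or 50.4 CPM (13.7–129), an interval that includes the 34.5 CPM of nuclei without Gpc3. The antisense gene Gm43449 overlaps Afp and collected more UMIs, 335, 428 and 490, and the strand setting of the counting was not given in the sources used here.

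The genes beside Afp on chromosome 5 and its known repressors stayed within 2-fold of ND. Alb (albumin), Gc (vitamin D-binding protein) and Afm (afamin), the other genes of the albumin family, had mean log2 ratios to ND of -0.58 ± 0.30, -0.52 ± 0.28 and -0.45 ± 0.03 (SD, n = 2), and 0 of 3 passed the 2-fold rule. Zhx2 and Zbtb20, known repressors of Afp after birth, stood at 159, 184 and 191 CPM and at 2892, 3771 and 3419 CPM, mean log2 ratios of 0.24 ± 0.04 and 0.31 ± 0.10. Of 14 hepatic regulators of fetal genes, Zhx2 and Zbtb20 among them, 0 were higher and 2 lower, beside 8.23% and 5.37% over all genes. Foxa3, a hepatocyte forkhead factor, was lower, at -1.27 ± 0.17 on the log2 scale.

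Golm1, at chr13:59634626-59675811 on the minus strand, was less abundant in hepatocyte-like nuclei than in most other classes. It had 18, 69 and 36 UMIs there, or 0.700 CPM (0.415–1.11), 2.61 CPM (2.03–3.30) and 1.02 CPM (0.713–1.41). Relative to ND, Golm1 was at 3.73 (2.19–6.65) and 1.45 (0.804–2.72), so that Golm1 did not pass the rule and the second interval includes 1. In mesothelial-like nuclei it stood at 9.73, 59.6 and 41.5 CPM, 13.9-fold (0.334–88.0), 22.8-fold (11.6–41.7) and 40.8-fold (14.0–97.7) the hepatocyte-like level, from 1, 13 and 6 UMIs. T or NK-like nuclei had 7.62, 12.04 and 9.09 CPM, or 10.9-fold (2.68–33.0), 4.62-fold (2.03–9.28) and 8.93-fold (3.78–18.9). Macrophage-like nuclei of STZ-HFHC had 8.99 and 6.06 CPM, or 3.45-fold (2.20–5.29) and 5.96-fold (3.18–10.8). Endothelial-like nuclei had 2.05, 5.13 and 3.03 CPM. Naa35, a gene on the other strand that overlaps Golm1, had 1145, 1340 and 1885 UMIs in hepatocyte-like nuclei.

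In cholangiocyte-like nuclei, which numbered 32, 104 and 141, members were set against hepatocyte-like nuclei of the same library. Golm1 was at 11.2 (0.270–71.2), 3.30 (0.664–10.0) and 9.84 (2.55–27.5) times the hepatocyte-like level, from 1, 3 and 4 UMIs, the last interval alone lying above 1, with a mean log2 ratio of 3.14 ± 1.09 (SD, n = 3). Of 14954 genes tested, 14.0% were at least 2-fold higher in cholangiocyte-like nuclei in each library. Igf2bp3 was at 0.507 (0.0128–2.84), 0.750 (0.469–1.14) and 0.576 (0.248–1.14) of the hepatocyte-like level, intervals that include 1. Cd24a had 1, 9 and 2 UMIs, beside 1, 8 and 3 in hepatocyte-like nuclei. This was 202 (2.58–15887), 85.3 (29.2–254) and 59.1 (4.93–516) times the hepatocyte-like level, with very wide intervals in ND and STZ-HFHC 2.

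Cd24a, at chr10:43578284-43584265 on the plus strand, was sparse, with 54 UMIs in all nuclei kept. Over the 3 libraries, 12 were in 277 cholangiocyte-like nuclei, 13.7 CPM (7.09–24.0), and 12 in 13201 hepatocyte-like nuclei, 0.137 CPM (0.0709–0.240). B cell-like nuclei had 4 UMIs, or 3.10 CPM (0.844–7.93). The 12 hepatocyte-like UMIs fell in 12 nuclei, 1, 8 and 3 in the 3 mice. In STZ-HFHC 1 this was 7.77 times the ND level with an interval of 1.04 to 345.

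H19 and Igf2, the growth genes of the imprinted locus on chromosome 7, were at or near 0. H19, at chr7:142575529-142578143 on the minus strand, was not found in any of the 8494 nuclei of ND. It had 33 UMIs in 29 nuclei of STZ-HFHC 1 and 5 UMIs in 5 nuclei of STZ-HFHC 2. In hepatocyte-like nuclei it had 0, 18 and 2 UMIs, and the level of STZ-HFHC 1, 0.681 CPM (0.403–1.08), was at least 5.83-fold higher than the 3 UMIs that a count of 0 allows in ND. No fold was computed for STZ-HFHC 2. Macrophage-like nuclei of STZ-HFHC 1 held another 6 H19 UMIs. Igf2, at chr7:142650766-142666816 on the minus strand, had 1 UMI in a stellate or fibroblast-like nucleus of ND and none in hepatocyte-like nuclei, where 3 UMIs would be 0.117, 0.113 and 0.0848 CPM.

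Other genes of the pathways were read from lists of related genes. Genes of these lists were read in hepatocyte-like nuclei alone and were not compared with other classes, so their values do not place them in hepatocytes. In the IGF axis, 1 of 12 genes with at least 50 UMIs was higher and 2 were lower, beside 8.23% and 5.37% over all genes. Counts this small do not set the list apart from all genes. The gene that was higher was Igf2bp2, the relative of Igf2bp3, at 6.89, 46.5 and 25.3 CPM, or 6.75-fold (5.76–7.94) and 3.68-fold (3.12–4.34) the ND level. The lower genes were Igfals, a carrier of circulating IGF, and Igfbp2, an IGF-binding protein, at mean log2 ratios of -1.09 ± 0.04 and -1.20 ± 0.25 (SD, n = 2). Igf2bp1, the other member of the Igf2bp family, had 3 UMIs in hepatocyte-like nuclei. Of 5 imprinted growth genes with enough UMIs, 0 passed in either direction. Meg3, an imprinted noncoding RNA, had 5.99, 11.3 and 42.6 CPM.

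Among other oncofetal or liver tumor-linked genes, 10 of 16 with at least 50 UMIs were higher and 0 lower, beside 8.23% and 5.37% over all genes. The median of the mean log2 ratios of the 16 was 1.64, beside 0.09 over all genes. The list was drawn up with earlier results of these data known, so its direction is not independent evidence. Ly6d, a small surface protein, had 8, 371 and 427 UMIs, with ratios to ND of 45.1 (22.6–105) and 38.8 (19.5–90.4). Lcn2 (lipocalin 2, an acute-phase protein) had ratios of 33.0 (13.9–103) and 10.8 (4.41–34.1). Sall4, a zinc-finger factor of fetal liver, had 3, 45 and 43 UMIs and ratios of 14.6 (4.68–73.3) and 10.4 (3.33–52.5). Sox4, a factor of progenitor cells, had ratios of 14.2 and 5.09, and Scd2, a stearoyl-CoA desaturase prominent in early life, 10.0 and 4.15. The list had 30 genes, of which 29 could be matched.

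Of 8 partners and relatives of Gpc3 and Cd24a with enough UMIs, 1 was higher and 1 lower, beside 8.23% and 5.37% over all genes. Such counts do not set this list apart either. Gpc1, another glypican, had 1.67, 4.73 and 5.49 CPM, ratios of 2.82 (1.98–4.09) and 3.28 (2.35–4.68). Gpc4, also a glypican, at 227, 179 and 137 CPM, did not pass, with a mean log2 ratio of -0.53 ± 0.27. Selp (P-selectin, an adhesion receptor that binds CD24) was lower at -1.95 ± 0.61 on the log2 scale.

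The genes with the pattern most like each member were taken over 22 sums of a class and a library with at least 50 nuclei, among 15013 genes. The measure was Pearson's r of log2(CPM + 1), as a description, since these sums share libraries and depth. Igf2bp3 was most like Trp53cor1 (r = 0.87), Gsk3b (0.86) and Cyp2c70 (0.86). Gpc3 was most like Arhgap18 (0.91), Igfbp5 (0.91) and Bsg (0.90). Golm1 was most like Cenpe (0.92), Serpinb6b (0.91) and Efcab11 (0.91), and Afp, at low counts, like AC163638.2 (0.84), Gm40918 (0.82) and Stamos (0.81). Mesothelial-like nuclei, highest for Gpc3 and Golm1, entered from STZ-HFHC 1 alone (58 nuclei), at 1411 and 59.6 CPM. The r values of Gpc3 and Golm1 therefore lean on that sum. Rank correlations (Spearman) were 0.76 to 0.82 for Gpc3 and 0.85 to 0.90 for Golm1. Cenpe and Efcab11 were also sparse, at no more than 13.7 and 18.3 CPM.

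The excluded barcodes, which numbered 930, 1002 and 721, gave the same order of the mice for Igf2bp3 and Gpc3. Igf2bp3 stood there at 16.5, 77.7 and 33.7 CPM and Gpc3 at 0.459, 10.1 and 3.58 CPM.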

How the data were processed

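Nuclei of frozen liver were sequenced from 1 ND mouse and 2 STZ-HFHC mice, each as 1 library (10x 3′ v3.1 chemistry). The authors deposited raw UMI counts per gene and barcode, not normalized; the submitters' processing notes name Cell Ranger 7.0.1 and mm10. Whether intronic reads were counted was not given in the sources used here. If so, long genes such as Gpc3 and Igf2bp3 collect more UMIs, and levels are therefore compared within a gene.

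With the limits stated in the paper, barcodes needed 200 to 5000 genes and no more than 5% mitochondrial counts. Genes were kept that were found in at least 3 nuclei. The deposited libraries held 9424, 9923 and 11642 barcodes, and the paper's cell count after filtering equals their total. Barcodes excluded here were thus part of that count. The exclusion took the UMIs from 77617520, 73942732 and 72934861 to 42715797, 44350401 and 55632923. Counts were scaled to 10000 UMIs, log-transformed and clustered in Scanpy 1.11.5 (Python 3.11.15; 2000 variable genes, 30 principal components, 15 neighbors, Leiden resolution 1) without batch correction and without the 7 members. Clusters were named from marker lists, given at least 3 markers raised 2-fold over other clusters, and otherwise hepatocyte-like where 3 hepatocyte markers were 1.2 times the level of other clusters. The automatic threshold of Scrublet marked 1 nucleus in all and did not work, so doublets were kept, and the highest 8% of scores were left out as an alternative.

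UMIs were summed per class and library where at least 20 nuclei were present. Exact Poisson intervals were used for CPM, Clopper-Pearson intervals for shares and conditional binomial intervals for ratios, all at 95% and covering counting error only. Log2 ratios had 0.5 added to each count, and the limit for a count of 0 was 3 UMIs. Mice are the replicates, and no p-value was computed between conditions. Gene positions were taken from GENCODE M21 (GRCm38), which held 32158 of 32285 gene identifiers.

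The members and gene lists were chosen with earlier results of these data known. Named genes were the 7 members, the albumin family, Zhx2 and Zbtb20, at most 5 genes of each list past the rule, by the smaller of the 2 ratios, and for members with at least 100 UMIs the 3 most similar genes. Gpc4, Meg3, Igf2bp1 and the genes that overlap a member were named after their values were seen. A gene that the rule names is not reported here. Alternatives covered the upper limits, doublet scores, resolution, scaling, the added count, the minimum of UMIs, the thinning depth and leaving out a mouse.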

Additional observations from a re-analysis of the deposited data

Results flagged for a closer look

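For Igf2bp3, the ratio of the most pericentral to the most periportal hepatocyte-like nuclei lay on opposite sides of 1 in the conditions, at 0.862 in ND and at 1.93 and 1.87 in the STZ-HFHC mice. The ND interval (0.661–1.12) includes 1, and this difference between conditions was not tested, since ND has 1 mouse.

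For Afp, this ratio was 0.956 in ND, and 3.67 and 1.25 in the STZ-HFHC mice. Only the interval of STZ-HFHC 1 excludes 1, it rests on 25 against 7 UMIs, and this difference was not tested either.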

How the results depend on the processing

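Gpc3, Igf2bp3 and Golm1 kept a positive mean log2 ratio to ND in hepatocyte-like nuclei in every alternative run within the class, with ranges of 3.03 to 4.97, 1.16 to 2.44 and 0.52 to 1.87, the lowest values being those of STZ-HFHC 2 alone. Over all nuclei kept, without classes, the value of Gpc3 was 2.76. Afp lay between -0.15 (Leiden resolution 0.5) and 0.14, with both signs. The mesothelial-like to hepatocyte-like ratio stayed between 7.85 and 8.60 for Gpc3 and between 4.45 and 5.20 for Golm1 on the log2 scale, and could not be computed without the upper limits on genes and mitochondrial counts, where no cluster was named mesothelial-like. Without those limits 1 member in place of 2 was higher, since Igf2bp3 had a log2 ratio of 0.96 in STZ-HFHC 2, with 377 and 1188 UMIs. The cholangiocyte-like to hepatocyte-like log2 ratio of Igf2bp3 was -0.23 without the highest doublet scores and -0.056 with 2 added to each count, beside -0.50 in the main setting; for Golm1 it was 2.96 to 3.74.

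Over all genes, 1221 were higher and 797 lower. A minimum of 10 UMIs gave 1927 higher genes, and no minimum gave 3011 higher and 1920 lower genes, since more genes were then read. In each of these settings 3 members were higher, H19 being the added member. Leaving out a STZ-HFHC mouse gave 1236 to 1563 higher and 998 to 1639 lower genes, and 2 to 3 higher members, Golm1 being the added member without STZ-HFHC 2. At 2000 UMIs in place of 1000, an Igf2bp3 UMI was found in 3.16%, 14.4% and 6.55% of hepatocyte-like nuclei and a Gpc3 UMI in 0.0872%, 1.82% and 0.515%, as deeper sampling finds more. The settings that left out the 10 nuclei with most Gpc3 UMIs or the cluster led by Vmn2r3 were chosen after seeing the data.

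No paired analysis was possible because ND has 1 library. H19, Igf2 and Cd24a are limited by depth, and the single ND mouse and its separate label code limit every comparison with ND.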
